A study of Mus musculus with 32 samples.

Results

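The replication-dependent histone genes were examined in fetal mouse germ cells on whole-transcript expression arrays. They were taken as the probes whose platform annotation gives exactly 1 gene symbol beginning with Hist1h, Hist2h, Hist3h, Hist4h, H2ac, H2bc, H3c or H4c. This rule found 22 of the 35556 probes, with 4 H2A, 9 H2B, 3 H3 and 6 H4 genes. It found no H1 gene, because the annotation names these by H1f symbols, and the 5 probes with 1 such linker histone symbol from the same gene cluster (H1f1, H1f2, H1f3, H1f5 and H1f6) are described beside the members. A further 25 probes list several histone copies each and are given as groups.

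The study asked whether endocrine disruptors (EDs) given to pregnant mice change the germ cells of the exposed fetuses and of the next, unexposed generation. EGFP+ germ cells, marked by the OG2 transgene in which the Oct4 promoter drives EGFP, were sorted from fetal gonads at 17.5 days post coitum (dpc), and RNA was hybridized to 32 arrays in 11 groups. G1R cells came from FVBxOG2 fetuses whose dams received bisphenol A (BPA, 0.2 mg/kg/day), the phthalate DEHP (750 mg/kg/day), the fungicide vinclozolin (VZ, 100 mg/kg/day) or corn oil by gavage from 12.5 dpc, with 3 male and 3 female arrays for each treatment except DEHP females, which had 2. G2R cells came from male fetuses of the cross between OG2 females and males that had been exposed in utero to DEHP, VZ or oil (OG2xFVB, 3 arrays each). The G2R fetuses were not treated themselves. There were thus 11 female arrays, all G1R, and 21 male arrays, 12 of G1R and 9 of G2R cells. The labels do not say whether arrays of 1 group came from separate dams, so p-values measure only the spread between these arrays.

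Core histones H2A, H2B, H3 and H4 wrap DNA into nucleosomes, and H1 binds the linker DNA between them. Most of their replication-dependent genes lie in clusters, have no introns, and are transcribed mainly in S phase under the control of NPAT. Most of these mRNAs end in a stem-loop bound by SLBP in place of a poly(A) tail. At this age male germ cells are prospermatogonia in mitotic arrest, whereas female germ cells are oocytes in meiotic prophase. Some family members are germ cell forms, namely H2ac1 (TH2A, formerly Hist1h2aa), H2bc1 (TH2B, Hist1h2ba) and H1f6 (H1t, Hist1h1t), which are known from the testis.

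Of the 22 members, 18 lie in the Hist1 cluster on chromosome 13 and 4 (H2bc18, H2bc21, H3c15 and H4c14) in the Hist2 cluster on chromosome 3. H2bc1 (chr13:23933725-23934156) and H2ac1 (chr13:23934437-23934913, both GRCm38.p6) are neighbours transcribed away from each other. RefSeq start-site windows, from 250 bases before to 50 bases after the start, were at hand for 18 members. The CCAAT box, read as CCAAT on either strand, stood in 15 of the 18 windows (83.3%), against 37.4% of all 32851 windows. TATAAA on either strand stood in 12 (66.7%), against 13.6% of all windows. The octamer ATTTGCAT, the sequence that POU-domain factors such as Oct1 bind, was in 8 (44.4%), against 1.74% of all windows. None of these motifs contains another. The octamer split the classes, since 3 of 4 H2A and 5 of 7 H2B windows held it and 0 of 7 H3 and H4 windows did. A match is a description of letters in the window and does not show a bound factor, and neighbours such as H2ac1 and H2bc1 share 1 octamer between them.

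The 250 bases before the start are printed for 3 H2B genes whose levels differed most between groups and for 2 H4 genes that differed by sex only (RefSeq, GRCm38.p6, 5′ to 3′ on the gene's strand). These genes were picked by their values. H2bc9, which holds no octamer and was also lower in G2R oil males, is not printed. Capitals mark CCAAT, ATTTGCAT and TATAAA on either strand. H2bc1 (chr13:23934157-23934406, minus strand), H2bc14 (chr13:21721794-21722043, plus strand) and H2bc3 (chr13:23746484-23746733, plus strand) hold the octamer. H4c3 (chr13:23698459-23698708, minus strand) holds only CCAAT, and H4c8 (chr13:23530794-23531043, plus strand) holds none of them here.
H2bc1: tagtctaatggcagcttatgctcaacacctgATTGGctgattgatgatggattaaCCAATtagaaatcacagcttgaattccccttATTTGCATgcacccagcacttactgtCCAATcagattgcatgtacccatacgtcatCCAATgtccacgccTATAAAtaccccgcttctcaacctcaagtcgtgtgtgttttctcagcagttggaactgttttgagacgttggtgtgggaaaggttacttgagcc
H2bc14: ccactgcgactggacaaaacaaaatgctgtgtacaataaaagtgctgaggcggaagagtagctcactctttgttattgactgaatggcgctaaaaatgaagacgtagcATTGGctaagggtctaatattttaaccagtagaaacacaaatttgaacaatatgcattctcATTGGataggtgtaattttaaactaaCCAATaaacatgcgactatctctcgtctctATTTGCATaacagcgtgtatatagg
H2bc3: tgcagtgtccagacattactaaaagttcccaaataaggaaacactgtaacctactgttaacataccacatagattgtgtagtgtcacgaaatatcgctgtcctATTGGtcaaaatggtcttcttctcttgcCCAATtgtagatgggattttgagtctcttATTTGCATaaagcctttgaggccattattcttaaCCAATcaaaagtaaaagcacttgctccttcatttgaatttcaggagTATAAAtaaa
H4c3: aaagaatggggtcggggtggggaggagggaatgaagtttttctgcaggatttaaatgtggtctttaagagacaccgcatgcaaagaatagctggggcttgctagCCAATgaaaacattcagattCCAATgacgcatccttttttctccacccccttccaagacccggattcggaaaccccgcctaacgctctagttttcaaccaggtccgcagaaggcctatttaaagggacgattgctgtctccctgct
H4c8: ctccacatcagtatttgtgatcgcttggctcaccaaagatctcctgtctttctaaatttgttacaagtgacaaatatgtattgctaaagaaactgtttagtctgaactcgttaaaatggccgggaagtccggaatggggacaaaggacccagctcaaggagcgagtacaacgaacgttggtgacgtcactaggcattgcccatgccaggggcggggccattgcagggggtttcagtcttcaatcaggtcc

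The labels were checked against marker genes. The mean log2 signal of 8 general germ cell markers was 10.24 to 10.57 in every array. That of 6 oocyte markers was 10.24 to 10.38 in female arrays, against 7.74 to 7.94 in G1R male arrays. The 5 prospermatogonia markers gave 7.17 to 7.36 in female arrays, against 10.13 to 10.42 in G1R male arrays, and 10.29 to 10.56 in G2R male arrays. Markers of gonadal somatic cells also differed. The 8 Sertoli markers gave 6.81 to 7.06 in female arrays, against 7.21 to 8.86 in G1R male arrays, and 6.99 to 7.65 in G2R male arrays, with 4 of 8 above 6.7 in females and 6 to 8 of 8 in G1R males. The 6 endothelial markers gave 6.39 to 6.61 in female arrays, against 8.04 to 8.28 in G1R male arrays, with 8.09, 8.20 and 8.11 in BPA male arrays 1, 2 and 3. The 7 probes for markers of granulosa cells, an ovarian cell type, were also lower in females. They gave 6.94 to 7.32 in female arrays, against 7.49 to 7.66 in G1R male arrays. Within the BPA males, arrays 1 and 2 stood apart from array 3, with Sertoli means of 8.86, 8.32 and 7.37 and interstitial means of 8.59, 9.42 and 7.68, so BPA results are also given with array 3 as the only BPA male array. In such sorted bulk samples, fewer cells of a type and less RNA per cell cannot be told apart.

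Signals of the members spanned most of the array's range. H4c4 had a mean log2 signal of 13.49 over all 32 arrays and H2ac8 one of 3.54, although signals of different probes are not a scale of abundance. There were 7 dim probes, with a mean at or below 6.7 (H2ac8, H2bc4, H2bc21, H2bc22, H3c7, H3c15 and H4c8), and 15 were above it. The arrays give no detection call, so a dim probe may hold little signal of its gene. Group means of H2bc1 ranged over 2.35 log2 units and those of H2bc14 over 1.79, whereas those of H4c14 ranged over 0.22. The highest group mean was in a female group for 19 of the 22 members, and the lowest was in a G2R group for 15.

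**Figure D1:**
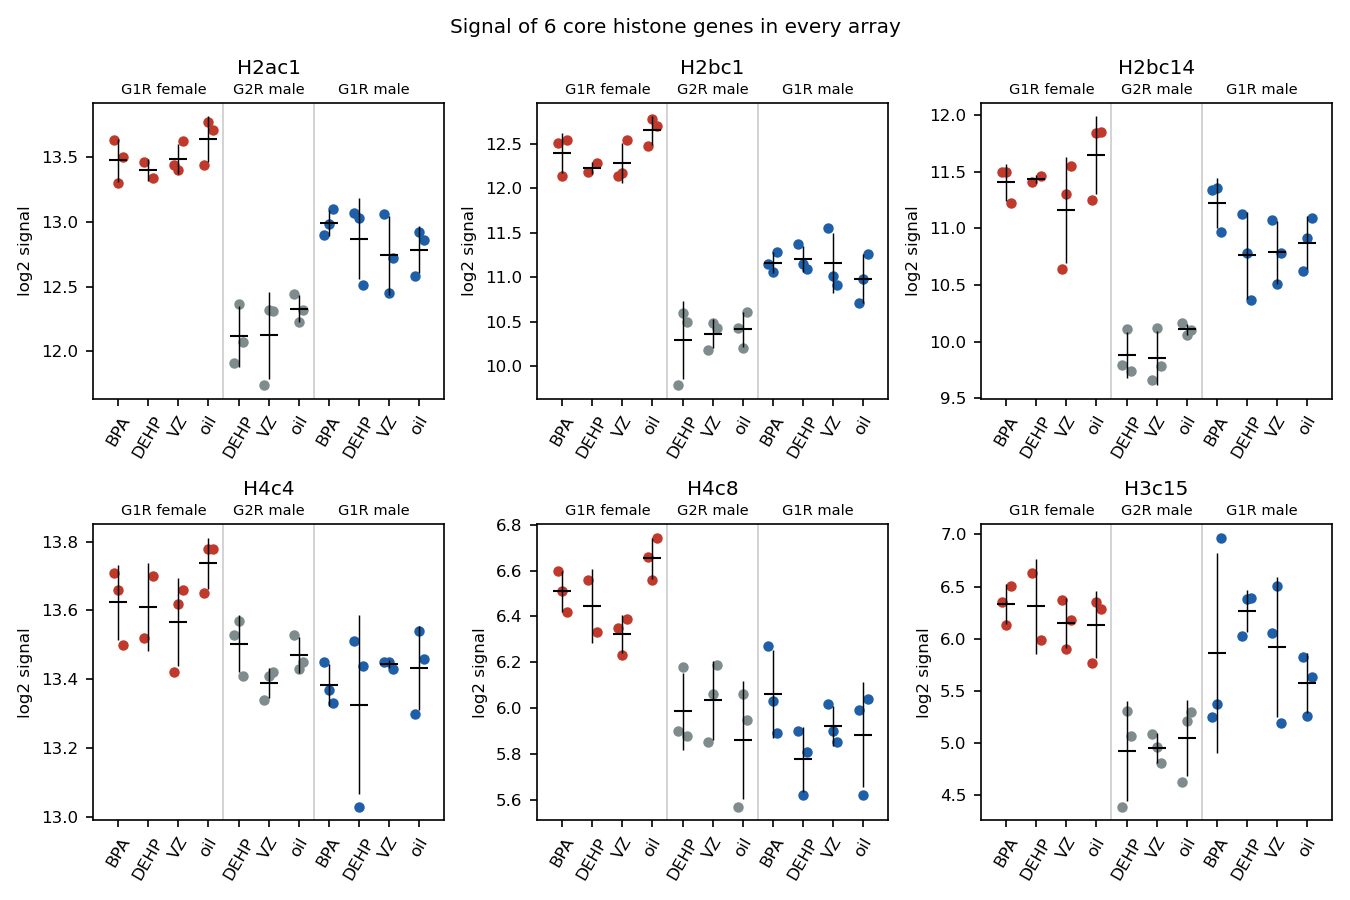
Log2 signal (y axis) of H2ac1, H2bc1, H2bc14, H4c4, H4c8 and H3c15 in the 11 groups (x axis: G1R females, G2R males, G1R males), with a point for each array, a line at the group mean and a bar of 1 SD. H2ac1 and H2bc1 were high in females, lower in G1R males and lowest in G2R males, whereas G2R and G1R males overlapped for H4c4 and H4c8.

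Female and male germ cells were compared first in the oil group. Of the 22 members 14 (63.6%) were higher in oil females, 0 were lower and 8 missed the test. The test was limma over all 35556 probes, with a Benjamini-Hochberg adjusted p under 0.05. The sexes differ widely in general, as 54.3% of all probes differed, 28.7% higher in females and 25.6% lower. The median difference of the members was 0.38 (log2, female minus male), against 0.05 over all probes, and 21 of 22 members had a positive difference (19 of 22 after cyclic loess normalization, where 10 members passed and H4c14 had -0.06). Female and male arrays did not overlap for 13 members, all higher in females, against 59.8% of all probes that did not overlap in either direction.

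All 5 probes of the linker histones H1 were higher in oil females, with differences of 1.01 to 1.29. H1f2 (H1c), the highest, gave 7.60, 8.57 and 7.84 in oil females, against 6.69, 6.56 and 6.88 in oil males. No female value lay within the male range. The difference was 1.29 (SE 0.187, a fold of 2.44, limma adjusted p = 1.6e-06). H1f6, the testis form H1t, averaged 9.04 in oil females and 7.97 in oil males, a difference of 1.08 (SE 0.163, adjusted p = 3.19e-06). The lowest of the class was H1f3 (H1d), a dim probe, at 1.01 (SE 0.154, adjusted p = 3.59e-06).

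Among the H2A and H2B genes, which form the dimers on the outside of the nucleosome, 8 of 13 were higher in oil females. H2bc1 (TH2B) differed most of all members. Its log2 signals were 12.47, 12.78 and 12.70 in oil females, against 10.71, 10.98 and 11.26 in oil males. The female arrays all lay more than 1 log2 unit above the male ones. The difference was 1.67 (SE 0.187), a fold of 3.17 (limma adjusted p = 2.53e-08). Its neighbour H2ac1 (TH2A) gave 13.44, 13.77 and 13.71 in oil females, against 12.58, 12.92 and 12.86 in oil males. Here too the arrays were separate, by 0.85 (SE 0.168, a fold of 1.81, adjusted p = 0.000111).

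H2ac4, a core H2A gene of the Hist1 cluster, had the largest difference of the H2A class. It gave 7.67, 7.88 and 7.62 in oil females, against 6.25, 6.56 and 6.96 in oil males. The male arrays were more scattered than the female ones but lay below all of them. The difference was 1.14 (SE 0.199, a fold of 2.20, limma adjusted p = 2.53e-05). H2bc14, a core H2B gene, gave 11.25, 11.84 and 11.85 in oil females and 10.62, 10.91 and 11.09 in oil males. Female array 1 was nearest to the males but above all of them, and the difference was 0.78 (adjusted p = 0.00302). H2ac15, the lowest of the H2A class, differed by 0.17 (SE 0.127, adjusted p = 0.286). H2bc4, a dim probe, was the only member with a negative difference, -0.23 (adjusted p = 0.35).

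H3 and H4 form the tetramer at the core of the nucleosome. Of the 6 H4 genes 5 were higher in oil females (3 after cyclic loess normalization), but by less than the H1 genes. H4c8, a dim probe, gave 6.66, 6.56 and 6.74 in oil females, against 5.99, 5.62 and 6.04 in oil males. The groups did not overlap. It differed by 0.77 (SE 0.131, a fold of 1.71, limma adjusted p = 1.54e-05). H4c4, the H4 probe with the brightest signal, gave 13.65, 13.78 and 13.78 in oil females, against 13.30, 13.54 and 13.46 in oil males. These too were separate, though by only 0.30 (adjusted p = 0.0116). H4c14 of the Hist2 cluster did not pass the test, with 0.05 (SE 0.0975, adjusted p = 0.67).

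H3c7 was the only H3 gene that passed, with 0.27 (limma adjusted p = 0.0231) from a dim probe. H3c15 had a larger difference, 0.56, but also more scatter (SE 0.345, adjusted p = 0.177). H3c4 had 0.27 (SE 0.148, adjusted p = 0.134). Which H3 gene passed turned on the normalization, since after cyclic loess H3c7 had 0.09 (adjusted p = 0.51) and H3c4 0.38 (adjusted p = 0.0339). By gene cluster, 13 of the 18 Hist1 members and 1 of the 4 Hist2 members, H2bc21, were higher in oil females, and after cyclic loess normalization H2bc21 missed the test (0.31, adjusted p = 0.0686). Their medians were 0.38 and 0.23. The difference between the clusters was not tested.

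Of the members with the octamer in the window 7 of 8 were higher in oil females, with a median of 0.81, against 5 of 10 of those without it, with a median of 0.33, and 28.7% of all probes. The 10 were 0 of 3 H2A and H2B members (median 0.17) and 5 of 7 H3 and H4 members (median 0.42). After cyclic loess normalization H2ac8, which holds the octamer, missed the test at 0.02. The 8 are not independent, since H2ac1 and H2bc1, and likewise H2ac8 and H2bc8, are neighbours that share an octamer, and the difference was not tested.

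**Figure D2:**
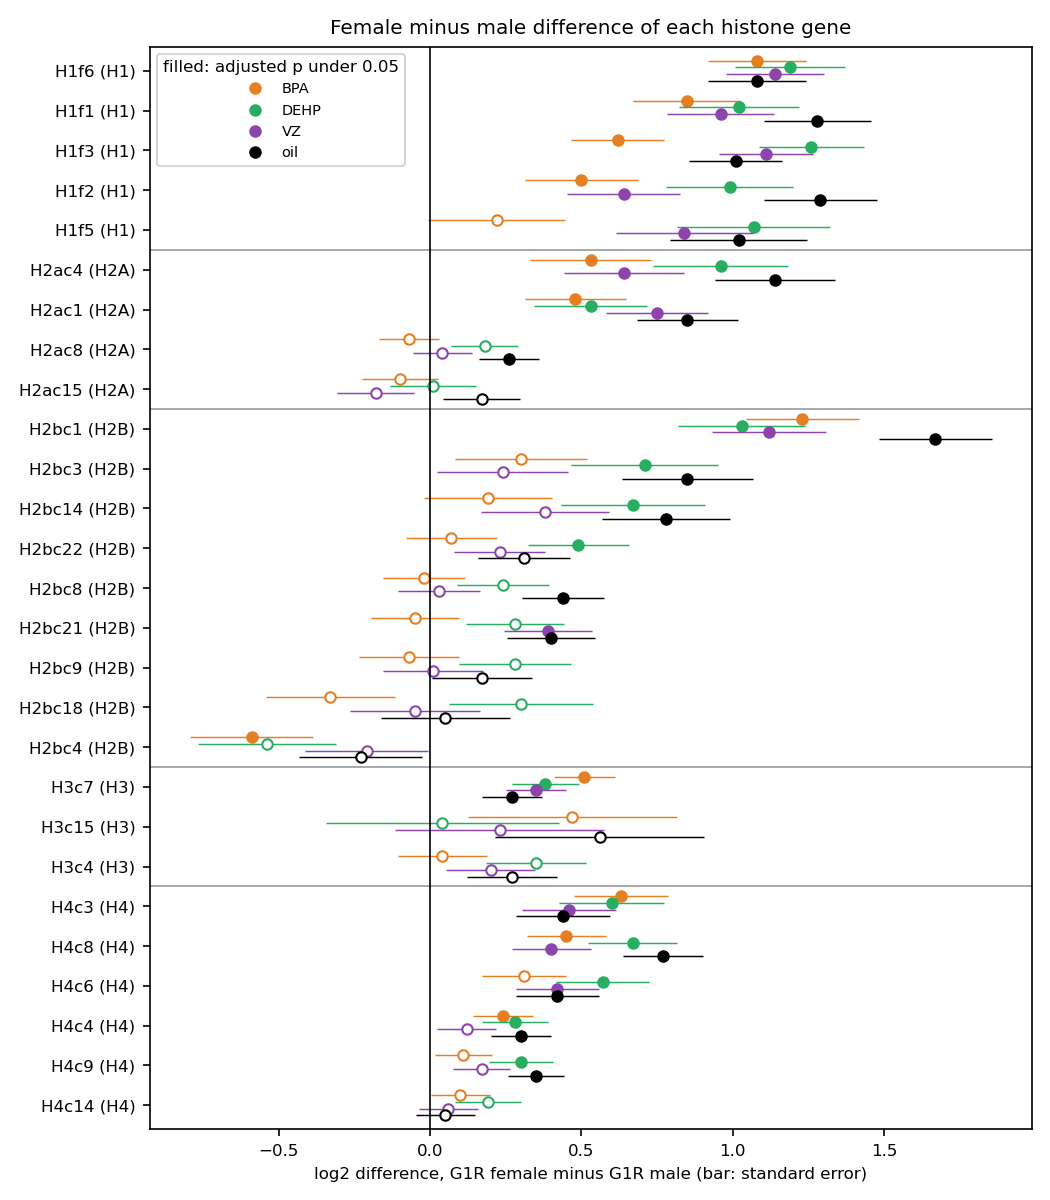
Log2 difference, female minus male (x axis), of the 22 members and the 5 H1 genes (rows, by class) in the BPA, DEHP, VZ and oil groups, with bars of 1 SE and filled points where the limma adjusted p was under 0.05. The H1 genes, H2ac1, H2bc1 and H4c8 lay right of 0 in all 4 treatments, and most H2B genes lay near 0 in the BPA group.

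The sex difference was measured again in each ED group, on separate arrays. H2ac1, H2bc1, H2ac4, H3c7, H4c3 and H4c8 were higher in females in all 4 treatments. After cyclic loess normalization this held for H2ac1, H2bc1 and H2ac4, whereas H3c7 missed the test in oil, DEHP and VZ, H4c3 in oil and VZ, and H4c8 in VZ. How many of all probes were higher in all 4 treatments was not counted. In the DEHP group 12 of 22 members were higher and 0 lower (52.1% of all probes differed, 28.5% higher and 23.6% lower), with a median of 0.33 against 0.09 over all probes. In the VZ group 8 (36.4%) were higher and 0 lower (55.4% of all probes, 31% higher and 24.5% lower), with a median of 0.23 against 0.11. After cyclic loess normalization 5 members were higher and 1 lower in the VZ group. In the BPA group 7 (31.8%) were higher and 1 lower (55.8% of all probes, 30.6% higher and 25.1% lower), with a median of 0.15 against 0.08. The members' share of higher calls was thus near that of all probes in the BPA group and not far above it in the VZ group. Members whose arrays did not overlap numbered 16 higher and 1 lower after DEHP, 9 higher and 0 lower after VZ, and 9 higher and 0 lower after BPA, against 68.2%, 64.1% and 61% of all probes. After VZ and BPA the members' share was below that of all probes. Of the H1 genes 5 of 5 were higher after DEHP, 5 of 5 after VZ and 4 of 5 after BPA, where H1f5 missed the test (0.22, adjusted p = 0.422). The count of members called fell to 5 without BPA female array 1, to 6 (5 higher and 1 lower) without DEHP female array 2, and to 5 without VZ male array 3 or VZ female array 3.

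H2bc1 gave 12.51, 12.14 and 12.54 in BPA females, against 11.15, 11.06 and 11.29 in BPA males. It gave 12.18 and 12.28 in DEHP females, against 11.37, 11.15 and 11.09 in DEHP males. In VZ females it gave 12.14, 12.17 and 12.54, against 11.55, 11.02 and 10.92 in VZ males. No female array overlapped a male one in any treatment. The differences were 1.23 after BPA (limma adjusted p = 3.32e-06), 1.03 after DEHP (adjusted p = 0.00018) and 1.12 after VZ (adjusted p = 1.25e-05). Over all treatments, H2bc1 was 12.14, 12.47 and 12.78 (lowest, median and highest) in the 11 female arrays, against 10.71, 11.12 and 11.55 in the 12 G1R male arrays. H2ac1 was 13.30, 13.46 and 13.77 in the female arrays, against 12.45, 12.91 and 13.10 in the G1R male arrays. These 2 members, with H1f1, H1f2, H1f3 and H1f6 beside them, were those in which every female array lay above every G1R male array, which held for 19.1% of all probes. Among the 22 members this share was lower than over all probes. H2ac1 missed the test in the BPA group without BPA male array 1 or BPA female array 1 (0.43 and 0.40, against 0.48 with all arrays), and in the DEHP group without either DEHP female array or without DEHP male array 3 (0.48, 0.59 and 0.35, against 0.53).

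H4c3, another H4 gene, gave 8.56, 8.86 and 8.80 in oil females and 8.30, 8.56 and 8.05 in oil males. The highest male array reached the lowest female one. The difference was 0.44 in oil (limma adjusted p = 0.0199), 0.63 after BPA (adjusted p = 0.00112), 0.60 after DEHP (adjusted p = 0.00514) and 0.46 after VZ (adjusted p = 0.0152). H4c8 differed by 0.77, 0.45, 0.67 and 0.40 in the oil, BPA, DEHP and VZ groups.

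H2bc4 was the only member that passed in the other direction, where after cyclic loess normalization H2ac8 also did in the BPA and VZ groups (-0.40 and -0.24) and H2bc4 in the DEHP group (-0.61). It gave 5.83, 6.44 and 5.62 in BPA females, against 6.49, 6.96 and 6.22 in BPA males. The arrays overlapped, and the difference was -0.59 (limma adjusted p = 0.0157). The BPA male arrays 1 and 2 with the higher somatic markers also held the highest H2bc4 values, and with array 3 as the only BPA male array the difference was -0.26 (adjusted p = 0.48). In that fit 6 members were higher and 0 lower, 5 of the 6 shared with the full fit, and H2bc1 differed by 1.11 (adjusted p = 0.0019) and H1f5 by 0.86 (adjusted p = 0.0122). The part of the somatic cell markers in these differences was not tested.

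The probes for several copies behaved as groups, since within a class they correlated at 0.98 or more over the 32 arrays (0.659 or more for H4) and are not independent. In oil females 2 of 2 H2A, 6 of 7 H2B, 10 of 10 H3 and 6 of 6 H4 copy probes were higher, with median differences of 0.44, 0.43, 0.48 and 0.22. After DEHP the counts were 2 of 2, 5 of 7, 10 of 10 and 5 of 6, and after VZ they were 2 of 2, 0 of 7, 0 of 10 and 6 of 6. Of all probes 28.7% were higher in oil females, 28.5% after DEHP, 31% after VZ and 30.6% after BPA. After BPA only the H4 copies were higher (6 of 6, median 0.24), whereas the H2A, H2B and H3 copies had medians of 0.06, 0.04 and -0.14. With array 3 as the only BPA male array, 2 of these 6 H4 probes passed. H3 copies thus passed in the oil and DEHP groups only, but no interaction of sex and ED was called for any probe.

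**Figure D3:**
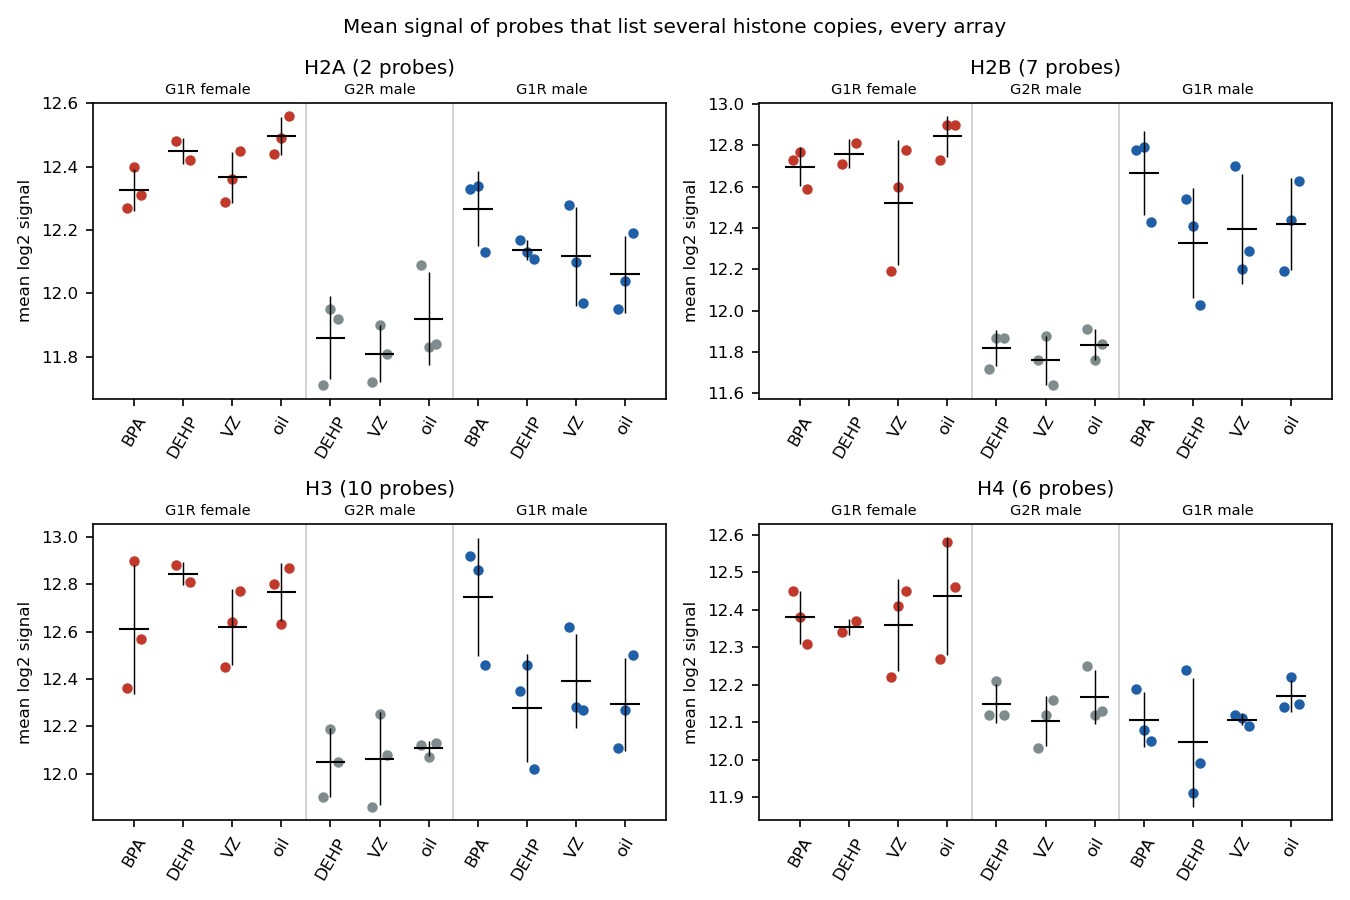
Mean log2 signal (y axis) of the probes that list several copies of H2A, H2B, H3 or H4 (panels) on each array, by group (x axis), with a line at the group mean. The H2B copies of all 9 G2R arrays lay at 11.64 to 11.91, below all 12 G1R male arrays at 12.03 to 12.79, while the H4 copies of G2R and G1R males overlapped.

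Genes that act on histone mRNA were followed beside the members, in lists chosen with earlier results of these data known. In oil females 17 of 26 probes of histone mRNA processing and transcription were higher and 5 lower (median 0.52), against 28.7% of all probes higher and 25.6% lower. Slbp, the stem-loop binding protein, was higher by 0.73 (limma adjusted p = 1.51e-07) and, in its other probe, by 0.53, whereas Npat, the S-phase activator of histone genes, differed by 0.11 (adjusted p = 0.32). The smallest p in this list were those of Yy1 (1.53), Ccne2 (1.81) and Cstf2 (0.99), a subunit of the 3′-end processing machinery. Of 35 probes for S phase and proliferation, 21 were higher in oil females and 8 lower (median 0.56). Pcna, the replication clamp, was higher by 1.27 and 1.28 in its probes and Mki67, a marker of cycling cells, by 1.66, while Uhrf1, Birc5 and Cdk1, which had the smallest p, were higher by 2.36, 2.81 and 2.69. Among 24 probes for histone chaperones 18 were higher and 2 lower (median 0.64), with Nasp, a chaperone of H3, H4 and linker histones, higher by 1.89, Tonsl higher by 1.63 and Anp32e, which removes the variant H2A.Z, lower, with a difference of -2.48.

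Replication-independent variants moved both ways, with 5 of 13 probes higher in oil females and 3 lower (median -0.02). Of all probes 28.7% were higher and 25.6% lower, so these counts do not set the variants apart. H2ax, the variant phosphorylated at DNA breaks, was higher by 1.40, the linker variant H1f10 by 1.84, Macroh2a1 by 1.36, and H1f8, the oocyte linker histone, by 1.04. H3f3a, which encodes H3.3, differed by -0.27 (limma adjusted p = 0.118).

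Each ED was then compared with oil within sex and generation, in 8 comparisons. No member passed the test in any of them, and percent called over all probes was 0 in 6 comparisons and 0.00562 in DEHP males (0.00281 each way) and in VZ males. At an unadjusted p under 0.05 there were 6 of the 22 members in BPA males (6.96% of all probes), 0 in DEHP males (14.4%), 0 in VZ males (18.3%), 1 in BPA females (4.56%), 0 in DEHP females (6.28%), 4 in VZ females (5.96%), 1 in G2R DEHP males (6.91%) and 0 in G2R VZ males (5.41%). Without moderation of the variance 0 members passed as well. The members' median differences ran between -0.19 in VZ females and 0.20 in BPA males. These comparisons share their oil arrays within a sex and generation.

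**Figure D4:**
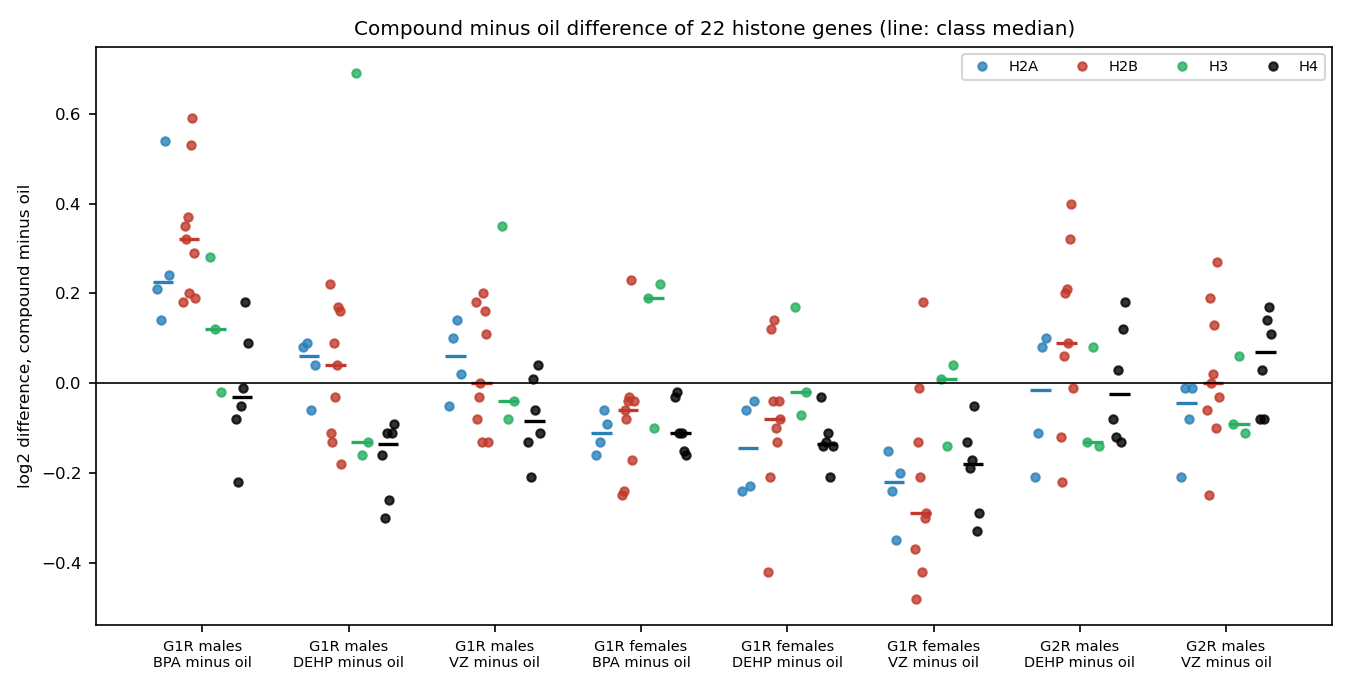
Log2 difference, ED minus oil (y axis), of each member by class (colours) in the 8 comparisons (x axis), with a line at the class median. In BPA males the H2A and H2B genes lay above 0 and the H4 genes around it, and in VZ females most members lay below 0.

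In BPA males all 13 H2A and H2B members had a positive difference from oil males, with a median of 0.29 (0.14 to 0.59), whereas the 6 H4 members had a median of -0.03. With array 3 as the only BPA male array, H2ac15 (-0.06) and H2bc9 (-0.02) were negative and the other H2A and H2B members positive. H2bc4 gave 6.49, 6.96 and 6.22 in BPA males, against 5.66, 6.16 and 6.09 in oil males. All BPA arrays lay above the oil arrays, array 2 by the most. The difference of 0.59 missed the test (limma adjusted p = 0.481). H2ac4 gave 7.25, 7.32 and 6.82 in BPA males, against 6.25, 6.56 and 6.96 in oil males. BPA array 3 fell below the highest oil array, and the difference was 0.54. H2bc21 differed by 0.37. These 3 had the smallest p among the members, and with array 3 alone the differences were 0.25, 0.24 and 0.02. The H3 copy probes had a median of 0.44 with 0 of 10 past the test, and 10 of 10 at an unadjusted p under 0.05 (6.96% of all probes). These probes correlated at 0.985 or more over the arrays and do not count as separate observations. With array 3 alone they had differences of 0.13 to 0.20. Arrays 1 and 2 were those with the high Sertoli, Leydig and interstitial markers, and the part of these cells was not tested.

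In the other male comparisons, H3c15 in DEHP males had the largest difference from oil of the members with the smallest p, 0.69. It gave 6.03, 6.38 and 6.39 in DEHP males, against 5.83, 5.26 and 5.63 in oil males. The arrays were separate, but the probe is dim and its spread wide (SE 0.345, limma adjusted p = 0.362). In the same comparison H4c3 and H4c6 differed by -0.30 and -0.26, and all 6 H4 members were negative. In VZ males the smallest p belonged to H4c14, H4c3 and H4c9, with differences of -0.13, -0.21 and -0.11. In G2R males of the DEHP line they belonged to H2bc8, H4c9 and H2bc4 (0.40, 0.18 and 0.32), and in those of the VZ line to H2bc8, H4c8 and H2ac1 (0.27, 0.17 and -0.21). All of these missed the test.

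In each of the BPA, DEHP and VZ female groups 19 of 22 differences from oil were negative (19, 18 and 18 after cyclic loess normalization). These counts share the same oil female arrays and are not independent. The median differences over all probes were 0.004, -0.0084 and -0.0023 in the BPA, DEHP and VZ females. VZ females had an H2B median of -0.29, and the 7 H2B copy probes had a median of -0.33. H2bc14, H4c8 and H4c9 had the smallest p there, at -0.48, -0.33 and -0.29. In DEHP females H2bc1, H4c8 and H4c9 differed by -0.42, -0.21 and -0.14, and in BPA females H3c7, H4c9 and H2bc1 by 0.22, -0.16 and -0.25. None passed, the lowest adjusted p of limma being 0.714 after VZ, 0.796 after DEHP and 1 after BPA. H1f2, among the linker histones, had the lowest differences of that class, -0.65 in BPA females and -0.66 in VZ females (adjusted p = 0.664 and 0.653). Its oil female array 2, at 8.57, stood above the other oil female arrays at 7.60 and 7.84.

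The difference between the sexes in the change after an ED, and between the generations in the change of the line, was tested as an interaction. No member passed in any of the 5 interactions, and neither did any other probe (0% called in each). The term nearest to the threshold by size of p was H2ac8 for sex by BPA, -0.33 (SE 0.139, limma adjusted p = 1). H2bc1 had -0.64 for sex by DEHP (SE 0.281, adjusted p = 0.641) and -0.54 for sex by VZ (SE 0.265, adjusted p = 0.798). H4c9 had 0.27 for generation by DEHP (SE 0.132, adjusted p = 0.378). A p above the threshold does not show that the EDs acted alike in both sexes.

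G2R males were then compared with G1R males of the same treatment line. In each line some H2A or H2B genes were lower in G2R prospermatogonia, whereas 0 of 6 H4 genes passed the test. In the oil line 3 members were lower (H2bc8, H2bc9 and H2bc14, all H2B), 0 higher and 19 missed the test, against 10.3% of all probes that differed, 5.3% lower and 5% higher. The median of the 9 H2B members was -0.46 (log2, G2R minus G1R, 8 of 9 negative), that of H2A -0.22, of H3 -0.20, of H4 0.01 and of the H1 probes -0.09, against -0.03 over all probes. Generation, cross and array run cannot be told apart here, since G2R fetuses came from the OG2xFVB cross and the run names of their arrays form a numbered series of their own.

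H2bc14 gave 10.16, 10.06 and 10.10 in G2R oil males, against 10.62, 10.91 and 11.09 in G1R oil males. The G2R arrays lay close together and below every G1R array. The difference was -0.76 (SE 0.212, a fold of 0.588, limma adjusted p = 0.0236). H2bc9 gave 9.43, 9.36 and 9.50 in G2R oil males, against 9.83, 10.12 and 10.14 in G1R oil males. Again no arrays overlapped, with a difference of -0.60 (SE 0.165, adjusted p = 0.0222). H2bc8 gave 5.92, 6.32 and 6.38 in G2R oil males, against 6.51, 6.77 and 6.72 in G1R oil males. G2R array 1 was the lowest, and the difference was -0.46 (SE 0.136, adjusted p = 0.0319). After cyclic loess normalization 4 members were lower, as H2bc8 missed the test (-0.35, adjusted p = 0.13) and H2bc1 (-0.63, adjusted p = 0.0412) and H2bc3 (-0.73, adjusted p = 0.0444) passed beside H2bc14 and H2bc9. The count of 3 rested on single arrays, as 0 members passed without G1R oil male array 2, without array 3 or without G2R oil male array 1, and 1 passed without G2R oil male array 2. H2bc14 kept differences of -0.79 to -0.66 when any of these or G2R oil male array 3 was left out, but missed the test.

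H2bc1, under RMA alone, and H2ac1 missed the test in the oil line. H2bc1 gave 10.43, 10.21 and 10.61 in G2R oil males, against 10.71, 10.98 and 11.26 in G1R oil males. The arrays were separate, and the difference was -0.57 (limma adjusted p = 0.0534). H2ac1 gave 12.44, 12.23 and 12.32 in G2R oil males, against 12.58, 12.92 and 12.86 in G1R oil males. The difference was -0.46 (adjusted p = 0.0811). H2bc3 gave 8.95, 8.88 and 9.29 in G2R oil males and 9.33, 9.64 and 10.07 in G1R oil males, with a difference of -0.64 (adjusted p = 0.0599). In the other classes the highest and lowest differences were 0.35 (H1f1) and -0.29 (H1f6) for H1, -0.15 (H2ac8) and -0.46 (H2ac1) for H2A, -0.12 (H3c7) and -0.53 (H3c15) for H3, and 0.07 (H4c3) and -0.08 (H4c9) for H4. The sign of the small H4 values turned with cyclic loess for H4c9 (0.00) and without G1R oil male array 3 for H4c3 (-0.06). H2bc4 was the only H2B gene with a positive difference, 0.27. With the octamer 2 of 8 members were lower in the oil line (median -0.46), and 1 of 3 H2A and H2B members without it (median -0.37). The 7 H3 and H4 members without it had a median of -0.02 and 0 lower. Of all probes 5.3% were lower. The same 3 medians were -0.41, -0.42 and 0.19 in the DEHP line and -0.51, -0.38 and 0.11 in the VZ line. The difference by octamer was not tested.

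**Figure D5:**
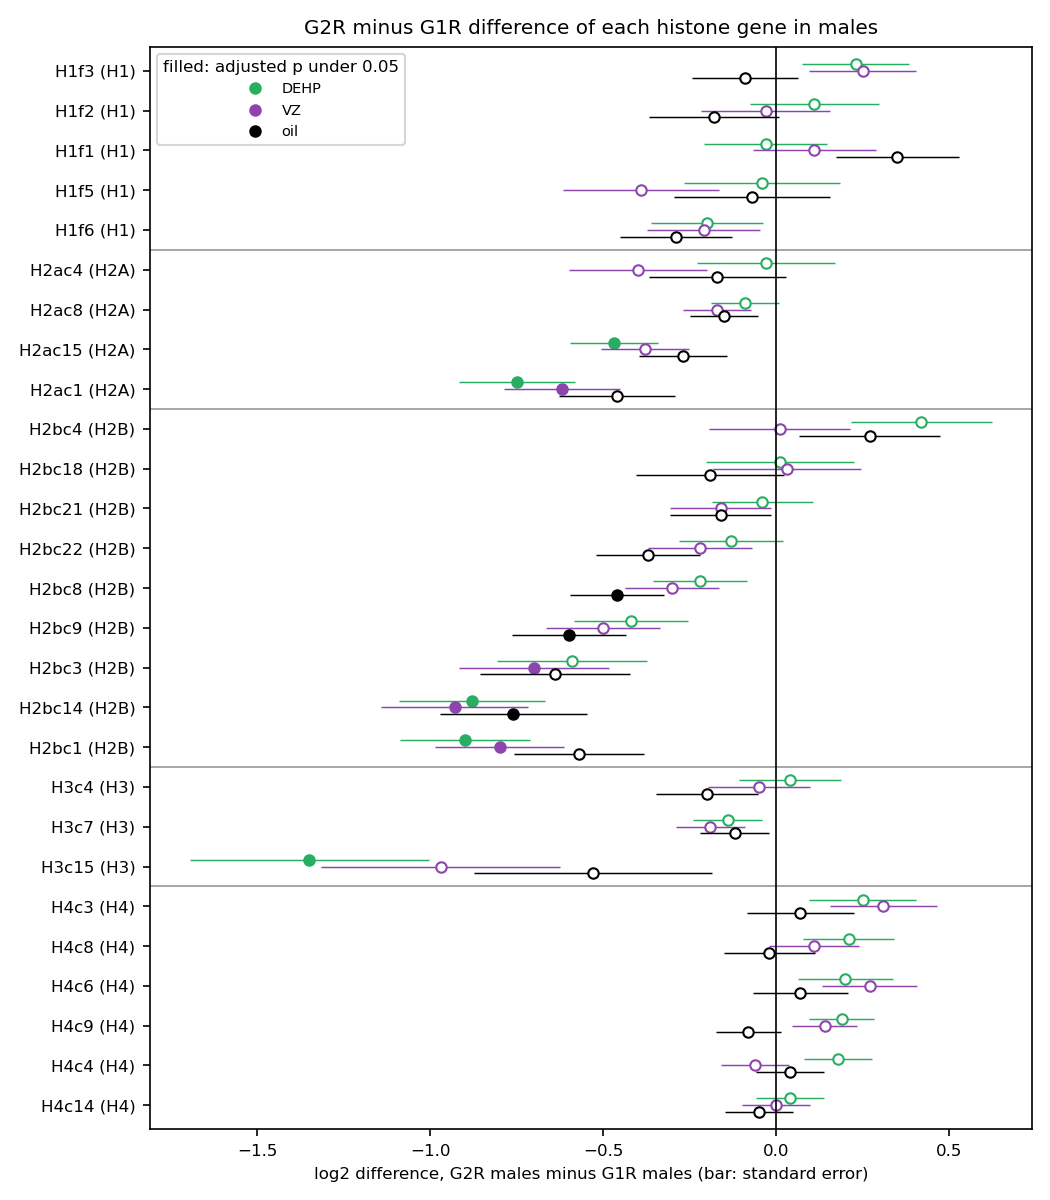
Log2 difference, G2R minus G1R males (x axis), of the 22 members and 5 H1 genes (rows, by class) in the DEHP, VZ and oil lines, with bars of 1 SE and filled points where the limma adjusted p was under 0.05. H2bc14 was lower in all 3 lines, H2ac1 and H2bc1 in the DEHP and VZ lines, and the H4 genes lay near or right of 0.

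The DEHP and VZ lines gave the same comparison on separate arrays. In the DEHP line 5 members were lower in G2R males (H2ac1, H2ac15, H2bc1, H2bc14 and H3c15) and 0 higher, against 14.5% of all probes that differed, 7.56% lower and 6.91% higher. In the VZ line 4 were lower (H2ac1, H2bc1, H2bc3 and H2bc14) and 0 higher, against 7.77%, 4.78% lower and 2.98% higher, and 3 were lower after cyclic loess normalization, where H2bc3 missed the test (-0.70, adjusted p = 0.0504). Members whose arrays did not overlap numbered 0 higher and 8 lower in the oil line, 1 higher and 8 lower in the DEHP line, and 0 higher and 11 lower in the VZ line, against 32.6%, 29% and 27.1% of all probes. The H4 medians were 0.20 in the DEHP line and 0.12 in the VZ line. The counts were 3 in the DEHP line without G1R DEHP male array 1 or without G2R DEHP male array 1, and in the VZ line 0 without G1R VZ male array 1 and 2 without G2R VZ male array 1. G1R VZ male array 1 also had the highest Sertoli mean of the G1R VZ male arrays (7.99, against 7.58 and 7.61 in arrays 2 and 3), the lowest Leydig mean (6.68) and the highest mean of the H2B copies (12.70, against 12.20 and 12.29) and of the H3 copies (12.62, against 12.28 and 12.27). The part of the somatic cell markers was not tested. Fitted on the arrays compared alone, 1 member passed in the DEHP line and 0 in the VZ line.

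H2bc1 gave 9.79, 10.60 and 10.50 in G2R DEHP males, against 11.37, 11.15 and 11.09 in G1R DEHP males. The lowest value was that of G2R array 1, yet all G2R arrays lay below all G1R arrays. The difference was -0.90 (SE 0.187, a fold of 0.534, limma adjusted p = 0.00211). In the VZ line it gave 10.18, 10.49 and 10.43 in G2R males, against 11.55, 11.02 and 10.92 in G1R males. The difference was -0.80 (SE 0.187, adjusted p = 0.0101). Without G1R VZ male array 1, the highest, it was -0.61 and missed the test. H2ac1 gave 11.91, 12.37 and 12.07 in G2R DEHP males, against 13.07, 13.03 and 12.51 in G1R DEHP males, a difference of -0.75 (adjusted p = 0.00388). In the VZ line it differed by -0.62 (adjusted p = 0.0239), and it missed the test without G1R VZ male array 1, without array 3 or without G2R VZ male array 1 (-0.46, -0.63 and -0.43). H2bc14 differed by -0.88 in the DEHP line (adjusted p = 0.00641) and -0.93 in the VZ line (adjusted p = 0.00792).

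H3c15 was the 1 member outside the H2A and H2B classes that passed. It gave 4.39, 5.31 and 5.07 in G2R DEHP males, against 6.03, 6.38 and 6.39 in G1R DEHP males. The arrays were far apart, and the difference was -1.35 (SE 0.345, limma adjusted p = 0.00999). In the VZ line it was -0.97 (adjusted p = 0.087) and in the oil line -0.53 (adjusted p = 0.337). The probe is dim, and over the 12 G1R male arrays it ranged between 5.19 and 6.97, the highest being BPA male array 3.

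Across all lines the 9 G2R arrays lay below the 12 G1R male arrays for 3 members, H2ac1, H2bc1 and H2bc14, against 1.75% of all probes. H2ac1 was 11.74, 12.31 and 12.44 (lowest, median and highest) in G2R arrays, against 12.45, 12.91 and 13.10 in G1R male arrays. H2bc1 was 9.79, 10.43 and 10.61, against 10.71, 11.12 and 11.55. H2bc14 was 9.66, 10.06 and 10.16, against 10.37, 10.94 and 11.36. The same G1R male arrays enter the comparisons with females and with G2R males, so the orders of the 3 parts are not independent.

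The H2B copy probes were lower in G2R males as well. They numbered 7 of 7 in the oil line (-0.64 to -0.52), 6 of 7 in the DEHP line and 7 of 7 in the VZ line. Of all probes 5.3%, 7.56% and 4.78% were lower in the oil, DEHP and VZ lines. The 7 H2B copy probes correlated at 0.989 or more over the arrays and do not count as separate observations. Their mean was 11.64, 11.84 and 11.91 (lowest, median and highest) in the G2R arrays, against 12.03, 12.44 and 12.79 in the G1R male arrays, with no overlap. Of the 2 H2A copy probes 0, 1 and 2 were lower in the oil, DEHP and VZ lines, and 0 of the H3 and H4 copy probes passed in any line.

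In the oil line the related lists were compared between generations as well. Slbp differed by 0.11 and 0.09 in its probes, Npat by 0.24 (limma adjusted p = 0.0917), Pcna by -0.18 and Mki67 by 0.21, and these missed the test. Ccne2, a cyclin that drives S-phase entry, was higher by 0.43 (adjusted p = 0.00804) and Yy1, a transcription factor, lower, with a difference of -0.25 (adjusted p = 0.0392). Of 26 probes for histone mRNA processing and transcription 4 were higher and 2 lower (23.1% called, median 0.09), against 10.3% of all probes, 5% higher and 5.3% lower. Of 35 for S phase 6 were higher and 2 lower (22.9%, median 0.05), of 24 for chaperones 4 were higher and 0 lower (16.7%, median 0.10), and of 13 for variants 0 were higher and 1 lower (7.69%, median -0.06). Of the marker lists, 1 of 6 oocyte markers was lower in this comparison, and 0 of 8 germ cell, 0 of 5 prospermatogonia, 0 of 8 Sertoli and 0 of 6 endothelial markers passed. The part of cell makeup in the lower H2B signals was not tested.

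Within groups, members of a class did not rise and fall as 1 unit. After subtracting each group's mean, the correlation of pairs over the 32 arrays had a median of 0.36 between H2B genes (-0.27 to 0.79), 0.34 between H2A and H2B genes, 0.32 between H4 genes, 0.28 between H2B and H4 genes and -0.08 between H3 genes. These are descriptions, since arrays share normalization and the pairs share arrays.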

How the data were processed

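RNA of sorted EGFP+ fetal germ cells was hybridized to 32 whole-transcript arrays. The authors normalized the arrays by robust multichip averaging (RMA) in Partek, whose version is not given in the sources used here, and the deposited values are log2 signals (2.59 to 14.82 over 35556 probes, array medians 7.29 to 7.50). RMA equalizes the distribution of signals between arrays, so a change shared by most transcripts would not appear. No array was left out, and the number of arrays limits the precision.

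One model with a mean for each group was fitted across all arrays (limma 3.58.1, R 4.3.3, 21 residual and 3.67 prior degrees of freedom). Benjamini-Hochberg adjustment ran over the 35556 probes, with a threshold of 0.05. Females minus males, ED minus oil and G2R minus G1R were the contrasts. The fit was also run on simulated data with 200 genes changed, and its outcome is not given here. Tables and figures were made with Python 3.11.15, pandas 2.3.3, numpy 2.4.6 and matplotlib 3.10.9. The platform annotation gave 1 gene symbol for 21789 probes, several for 1621 and none in the table used for 12146. Probes were dim at a mean log2 signal of 6.7 or lower. Array numbers were those of the labels.

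The members, gene lists and rules were chosen with earlier results of these data known. Named were the highest and lowest member of each class in the oil comparisons by sex and generation, the 3 smallest p in each ED comparison where none passed, the germ cell forms, and Slbp, Npat, Pcna, Mki67, H3f3a, H2ax and H1f8 (H3f3b and H1f0 had no probe with 1 symbol in the annotation used), with the 3 smallest p of each list in the oil sex comparison. Others named were chosen after their values were seen. Alternatives were unmoderated variances, a fit on the arrays compared, a filter on dim probes, probes with 1 gene symbol, cyclic loess, array weights, a block for the array number, and leaving out each array. A fit with array 3 as the only BPA male array was chosen after seeing the data.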

Additional observations from a re-analysis of the deposited data

How the results depend on the processing

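No alternative changed the 0 members called in the ED comparisons and interactions, in which leaving out arrays (not done for the interactions) also gave 0 to 0. The filter on dim probes kept only the 15 members with a mean log2 signal above 6.7. Of these 15, 5 differed by sex in the VZ group and 5 were lower in G2R males in the oil line. In the oil line, 5 of all members were lower among probes with 1 gene symbol and 6 with array quality weights. In the VZ line 7 were lower among probes with 1 gene symbol and 0 in a fit on the arrays compared alone, which gave 1 in the DEHP line. The filter and the restriction to 1 symbol test fewer probes, and a fit on fewer arrays has fewer degrees of freedom. The share of all probes called under each alternative is not given here. This holds also for cyclic loess, the block for the array number and the fit with a single BPA male array. The counts of members under the alternatives thus have no background of all probes to be read against. Leaving out 1 array gave 10 to 14 members by sex in oil, 5 to 7 after BPA, 6 to 13 after DEHP and 5 to 9 after VZ, and 0 to 4, 3 to 6 and 0 to 4 by generation in the oil, DEHP and VZ lines.

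Among members above 6.7, the oil sex difference had a median of 0.85 for H2A and 0.61 for H2B. Without 1 array, the sex medians were 1.01 to 1.27 (H1), 0.50 to 0.59 (H2A), 0.36 to 0.44 (H2B), 0.25 to 0.42 (H3) and 0.32 to 0.42 (H4), and the generation medians in oil were -0.19 to 0.00 (H1), -0.37 to -0.15 (H2A), -0.55 to -0.32 (H2B), -0.32 to -0.20 (H3) and -0.04 to 0.05 (H4). Cyclic loess reversed H4c14 by sex (-0.06) and H4c9 by generation (0.00), and leaving out 1 array reversed H4c3 (-0.06 to 0.20) and H4c9 (-0.16 to 0.03) by generation. The cause was not tested. Of the values of single members under all alternatives, 758 kept direction and side of the threshold, 8 passed it newly, 20 lost it and 4 reversed.

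Deviations of arrays with the same number correlated at -0.354 to 0.131. With so few arrays in a group this cannot exclude that the numbers pair samples, and the main fit treated the arrays as unpaired. With the replicate block, 14, 7, 13 and 8 members differed by sex in the oil, BPA, DEHP and VZ groups and 3, 5 and 3 by generation in the oil, DEHP and VZ lines, and the 62 values of named members kept their calls. Signals of the 7 dim members may lie near background, which these values do not give.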
